A study of Mus musculus with 16 samples.

Results

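The 7 mouse Schlafen genes Slfn1, Slfn2, Slfn3, Slfn4, Slfn5, Slfn8 and Slfn9 were taken by symbol from a table of 27179 genes, and all 7 were among the 12589 genes that passed the filter on low counts. RNA came from iBMDM cells (macrophages grown out of mouse bone marrow and made to divide without limit) of the line iBMDM MyD88-AGF, with the genotype MyD88-AGF WT in every group; the labels do not expand AGF. Responders had received 10 ng/mL lipopolysaccharide (LPS, a bacterial outer membrane component that activates TLR4) for 6 h and were sorted for high side scatter, the light that structures inside a cell deflect. Bystanders had the same LPS treatment and were sorted for low side scatter. The LPS pool had the same treatment and passed the sorter without a gate, after the gated cells had been collected. Untreated cells had no LPS and also passed without a gate. Each group had 4 libraries, 16 in all, and the labels do not say whether these were separate cultures, so a p-value covers only the differences among the 4 libraries of a group, whose origin may be technical. All samples came from a single line.

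Schlafen genes are vertebrate genes first described as growth regulators in mouse thymocytes, and most are induced by type I interferon. In macrophages, TLR4 signals through the adaptor MyD88 to NF-kappaB and through the adaptor TRIF to IRF3 and interferon beta. Secreted interferon then acts through a receptor and transcription factors that bind interferon-stimulated response elements in promoters. The family is split by protein length into a short form (Slfn1 and Slfn2), an intermediate form (Slfn3 and Slfn4) and a long form with a helicase-like domain (Slfn5, Slfn8 and Slfn9). In the GENCODE annotation of GRCm38 the longest reading frames had 337 codons for Slfn1 and 378 for Slfn2. They had 640 codons for Slfn3 and 602 for Slfn4, and 884, 910 and 910 for Slfn5, Slfn8 and Slfn9.

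All 7 genes lie in a single cluster of 263.8 kb on mouse chromosome 11 (82951349 to 83215154, GRCm38). Their order along the chromosome is Slfn5, Slfn9, Slfn8, the pseudogene Slfn10-ps, Slfn2, Slfn1, Slfn4 and Slfn3. Slfn8, Slfn9 and Slfn10-ps are read from the minus strand and the others from the plus strand. RefSeq promoter windows of GRCm38.p6 run from 250 bases before to 50 after an annotated start. They were found for all 7 genes, in 8 windows because Slfn8 has 2 such starts. The only Slfn5 window begins at 82951852, inside the gene's span, which begins at 82951349. No searched motif was matched in Slfn2, which was higher in responders than in bystanders, or in Slfn3, which was lower. Windows of the other 5 genes, which had a match, are shown. Each is read 5′ to 3′ along the gene's own strand, and capitals mark a match to a searched motif on either strand.
Slfn5 (chr11:82951852-82952151, plus strand): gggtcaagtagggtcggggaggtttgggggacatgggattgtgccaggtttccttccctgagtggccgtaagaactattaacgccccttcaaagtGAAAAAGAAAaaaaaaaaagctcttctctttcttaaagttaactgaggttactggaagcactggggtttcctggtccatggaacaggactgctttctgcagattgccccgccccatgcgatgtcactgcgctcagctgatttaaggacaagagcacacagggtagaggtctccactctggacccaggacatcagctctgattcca
Slfn8 (chr11:83020761-83021060, minus strand): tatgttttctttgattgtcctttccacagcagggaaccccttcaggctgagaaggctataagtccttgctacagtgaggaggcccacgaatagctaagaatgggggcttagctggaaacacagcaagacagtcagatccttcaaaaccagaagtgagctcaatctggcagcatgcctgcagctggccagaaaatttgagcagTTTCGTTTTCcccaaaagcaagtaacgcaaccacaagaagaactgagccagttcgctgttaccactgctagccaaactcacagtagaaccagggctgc
Slfn9 (chr11:82991781-82992080, minus strand): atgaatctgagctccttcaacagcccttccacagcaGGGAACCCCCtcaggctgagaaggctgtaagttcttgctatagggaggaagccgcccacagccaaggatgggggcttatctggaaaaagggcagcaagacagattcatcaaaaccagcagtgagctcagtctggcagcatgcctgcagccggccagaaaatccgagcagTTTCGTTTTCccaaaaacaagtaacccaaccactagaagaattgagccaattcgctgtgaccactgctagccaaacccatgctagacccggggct
Slfn1 (chr11:83116570-83116869, plus strand): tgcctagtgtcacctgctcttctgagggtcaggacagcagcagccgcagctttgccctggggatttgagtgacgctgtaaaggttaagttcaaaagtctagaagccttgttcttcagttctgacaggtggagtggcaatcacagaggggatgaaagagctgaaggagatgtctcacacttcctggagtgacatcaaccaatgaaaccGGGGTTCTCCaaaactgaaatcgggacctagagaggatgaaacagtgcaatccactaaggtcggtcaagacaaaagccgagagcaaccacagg
Slfn4 (chr11:83174936-83175235, plus strand): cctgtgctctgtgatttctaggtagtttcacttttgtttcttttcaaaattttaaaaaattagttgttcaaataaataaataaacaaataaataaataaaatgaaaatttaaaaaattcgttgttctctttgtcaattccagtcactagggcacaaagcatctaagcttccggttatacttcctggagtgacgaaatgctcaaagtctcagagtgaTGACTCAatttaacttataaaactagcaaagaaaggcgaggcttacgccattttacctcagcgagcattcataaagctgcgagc

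The interferon-stimulated response element was searched on both strands as GAAA, any 2 bases and GAAA again. It was present in the windows of 3 of 7 genes, the long forms Slfn5, Slfn8 and Slfn9, and in 3.44% of all 32851 promoter windows of the same length. In Slfn5 the match, GAAAAAGAAA, began at offset -155 from the start used for its window, which lies inside the gene's span. In Slfn8 and Slfn9 it was TTTCGTTTTC, the motif on the opposite strand, at -48 and -45. These 2 windows were 80.5% identical over their aligned length, and the second Slfn8 window held the same match. The AP-1 motif TGANTCA, a palindrome, was found in Slfn4 alone, as TGACTCA at -34, and in 7.81% of all windows. The NF-kappaB consensus was matched in Slfn1, at -43, and in Slfn9, at -214, and in 4.51% of all windows. The gamma-activated site TTCNNNGAA had no match in the 7 genes and was in 8.3% of all windows. No 2 of these matches overlapped. They are descriptions of letters in these windows, not of binding.

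Sequence similarity limits how well reads of these genes can be told apart. Coding sequences were 92.7% identical between Slfn8 and Slfn9 and 85.3% between Slfn3 and Slfn4, but 63% between Slfn1 and Slfn2. Of the 50-base windows in each gene's annotated transcripts, 14.6% of Slfn8, 11.2% of Slfn9, 8.15% of Slfn4, 7.39% of Slfn3, 4.27% of Slfn2 and 0.606% of Slfn1 also occurred in another Schlafen transcript, and 0% of Slfn5. The counting rule for reads that fit several places was not known, so the values of Slfn3, Slfn4, Slfn8 and Slfn9 are uncertain. A gene's own share does not bound this, because its partner may have far more reads. Of the Slfn4 windows 6.28% also occur in Slfn3. Slfn4 had 34.3 to 36.4 reads for each Slfn3 read in responders and 31.2 to 39.4 in the LPS pool. How much of the Slfn3 values there came from such reads was not tested.

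Libraries held 15287344 to 25193162 counts. Macrophage markers were present in every library, 8 of 8 genes with summed levels of 4529 to 4581 CPM (a gene's counts scaled to a common library total) in responders and 3759 to 3785 CPM in bystanders. Their sums were 4298 to 4356 CPM in the LPS pool, with 3278 to 3309 CPM in untreated cells. Of the lymphocyte markers, which matter here because T cells express Schlafen genes, 5 of 6 had 0 counts in all 16 libraries, and the sixth, Cd79a, stayed at or under 0.615 CPM. Neutrophil markers summed to 0.856 to 1.40 CPM in responders, 0.115 to 0.349 CPM in bystanders, 0.924 to 1.37 CPM in the LPS pool and 0.18 to 0.25 CPM in untreated cells. Of the 6, S100a9, Ly6g and Retnlg, 3 genes, were at 0 in all libraries. S100a8 ran from 0.0573 to 1.31 CPM, and Mpo and Elane stayed at or under 0.186 CPM. Dendritic cell markers, 5 genes, summed to 4.29 to 5.38 CPM in responders, 7.14 to 8.53 CPM in bystanders, 3.37 to 5.28 CPM in the LPS pool and 0.498 to 0.926 CPM in untreated cells. Xcr1 alone ran from 0.36 to 8.16 CPM, and no other dendritic marker passed 0.606 CPM in any library. Fibroblast markers, also 5, summed to 8.59 to 30.2 CPM in responders, 1.94 to 76.8 CPM in bystanders, 3.04 to 105.5 CPM in the LPS pool and 7.02 to 30.8 CPM in untreated cells. What part such differences had in the Schlafen values was not tested. Traces of neural transcripts, with summed levels of at least 9.08 CPM against at most 1.32 CPM elsewhere, were present in 6 libraries: responder 1, bystanders 3 and 4, LPS pool 3 and 4 and untreated 1.

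**Figure D1:**
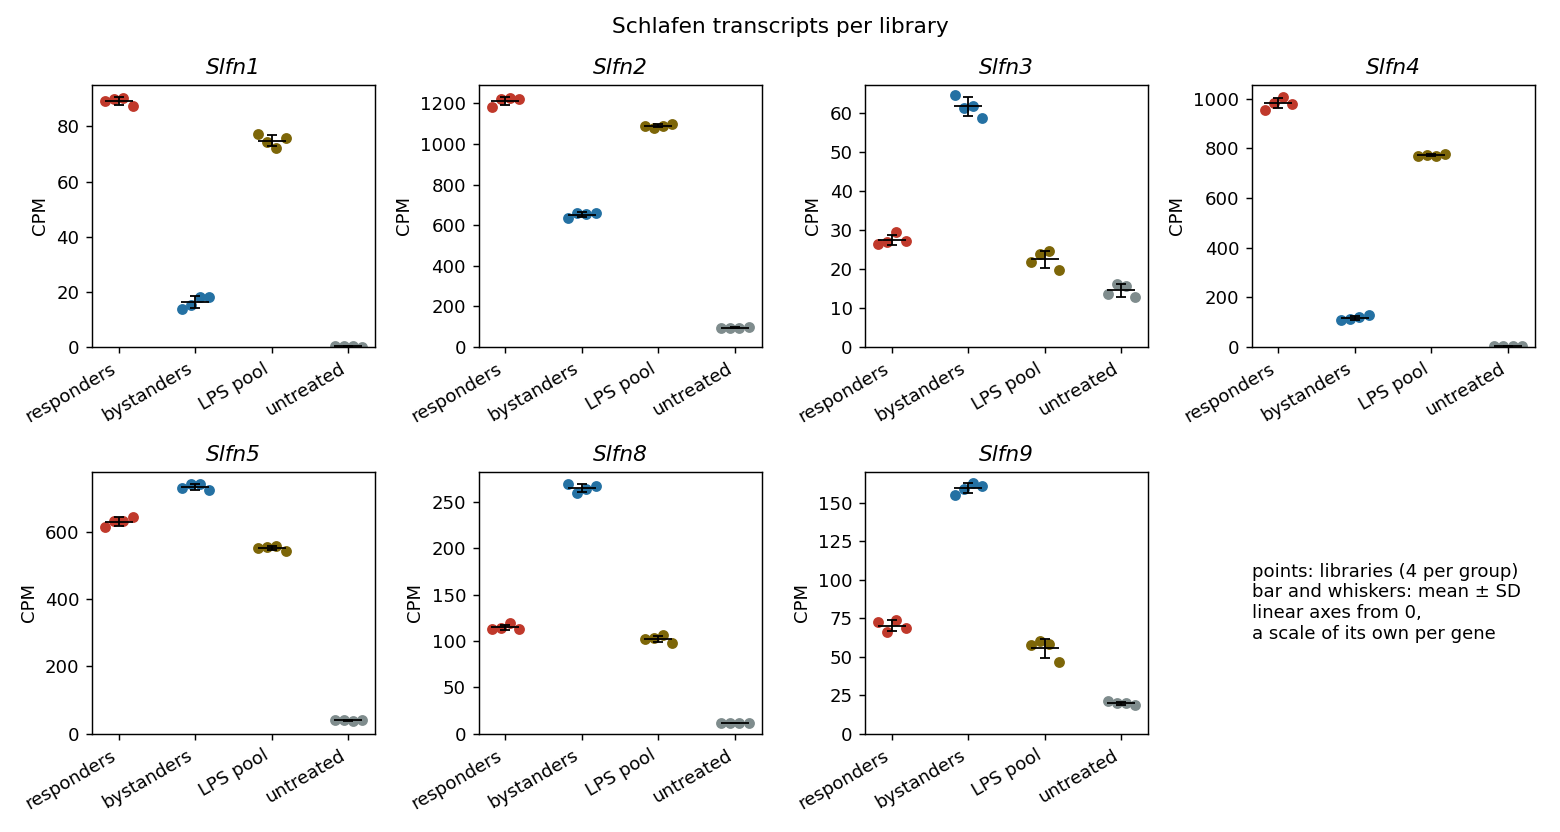
Level of each Schlafen gene in CPM (vertical axes, linear from 0, 1 scale per gene) in every library of the 4 groups; points are libraries, and the bar with whiskers is mean ± SD of 4. Slfn1, Slfn2 and Slfn4 stood highest in responders, and Slfn3, Slfn5, Slfn8 and Slfn9 in bystanders.

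The Schlafen genes split between the 2 side-scatter gates. Slfn1, Slfn2 and Slfn4 were higher in responders than in bystanders, by 5.40-fold, 1.86-fold and 8.26-fold. Slfn3, Slfn5, Slfn8 and Slfn9 were lower in responders, at 0.446, 0.858, 0.433 and 0.439 times the bystander level. All 7 passed edgeR's quasi-likelihood test, 3 higher and 4 lower, in a comparison where 70% of the tested genes passed (34.7% higher and 35.3% lower). At least 2-fold, 2 were higher and 3 lower, beside 5.82% and 5.33% of tested genes. The members' median log2 fold was -0.22, beside -0.01 over all genes. With libraries scaled by their totals alone, 27.8% of all calls were higher, against 49.5% with the scaling used here, and the members kept 3 higher and 4 lower. In bulk RNA, fewer cells that express a gene and less RNA per cell cannot be told apart.

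Both short forms were higher in responders. Slfn1, which slows thymocyte growth when overexpressed in mice, was at 89.1, 90.0, 90.4 and 87.4 CPM in responders, against 13.7, 15.2, 18.1 and 18 CPM in bystanders. The groups were far apart, and within bystanders libraries 3 and 4 were the higher ones. The log2 fold was 2.43 ± 0.051 (SE) with adjusted p = 1.63e-44. Slfn2, which keeps mouse T cells and monocytes quiescent and protects tRNAs from cleavage, was the most abundant member per kb of exon in every group. It was at 1184.3, 1221.3, 1229 and 1222 CPM in responders, against 633.5, 659.5, 655.2 and 658.9 CPM in bystanders. The log2 fold was 0.90 ± 0.019 (SE) with adjusted p = 3.74e-46.

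The intermediate forms, neighbours on the chromosome, went opposite ways. Slfn4, a myeloid gene induced by Toll-like receptor ligands in mouse macrophages, was at 955.9, 984, 1006 and 981.2 CPM in responders, against 109.8, 113.6, 122.1 and 127.7 CPM in bystanders. Its log2 fold of 3.05 ± 0.031 (SE), with adjusted p = 3.38e-33, was the highest of the family, and 0.802% of tested genes had a fold as high. Slfn3, studied mainly for differentiation of the rodent gut lining, was at 26.3, 27.0, 29.4 and 27.3 CPM in responders, against 64.6, 61.4, 61.9 and 58.8 CPM in bystanders. No responder library reached the lowest bystander library. The log2 fold was -1.16 ± 0.052 (SE) with adjusted p = 9.75e-27. The ratio of Slfn4 to Slfn3 reads within a library, which does not depend on scaling, was 34.3 to 36.4 in responders and 1.70 to 2.17 in bystanders.

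The long forms were all lower in responders, by unequal amounts. Slfn5, whose human counterpart is a nuclear protein that restrains interferon target genes, differed least, at 614.1, 632.2, 631.2 and 645.5 CPM in responders, against 729.6, 741.6, 743.7 and 725 CPM in bystanders. The log2 fold was -0.22 ± 0.019 (SE) with adjusted p = 1.13e-15, and -0.41 when libraries were scaled by their totals alone. Slfn8 was at 113, 114.3, 119.1 and 113.3 CPM in responders, against 269.9, 260.0, 263.7 and 267.9 CPM in bystanders. Its near copy Slfn9 was at 72.5, 65.9, 73.6 and 68.4 CPM in responders, against 154.8, 159.2, 162.9 and 161.1 CPM in bystanders. Both were thus well under their bystander level in every responder library. Their log2 folds were -1.21 ± 0.026 and -1.19 ± 0.046 (SE), with adjusted p = 5.31e-46 and 1.60e-16. Slfn8 had 1.56 to 1.74 reads for each Slfn9 read in responders and 1.62 to 1.74 in bystanders.

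Within-library ratios of the 3 closest pairs, chosen after the values were seen, were compared between the gates with exact permutation tests, two-sided, adjusted over 3. Slfn4 over Slfn3 differed by 4.22 on the log2 scale and Slfn1 over Slfn2 by 1.57. Each had an exact p = 0.0286 (adjusted p = 0.0429), the smallest p this design allows. The libraries of the gates were already fully apart in both ratios, so these p-values were fixed beforehand and add no support. Slfn8 over Slfn9 differed by -0.02 with an exact p = 0.571 (adjusted p = 0.571), and the ranges of the gates overlapped.

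**Figure D2:**
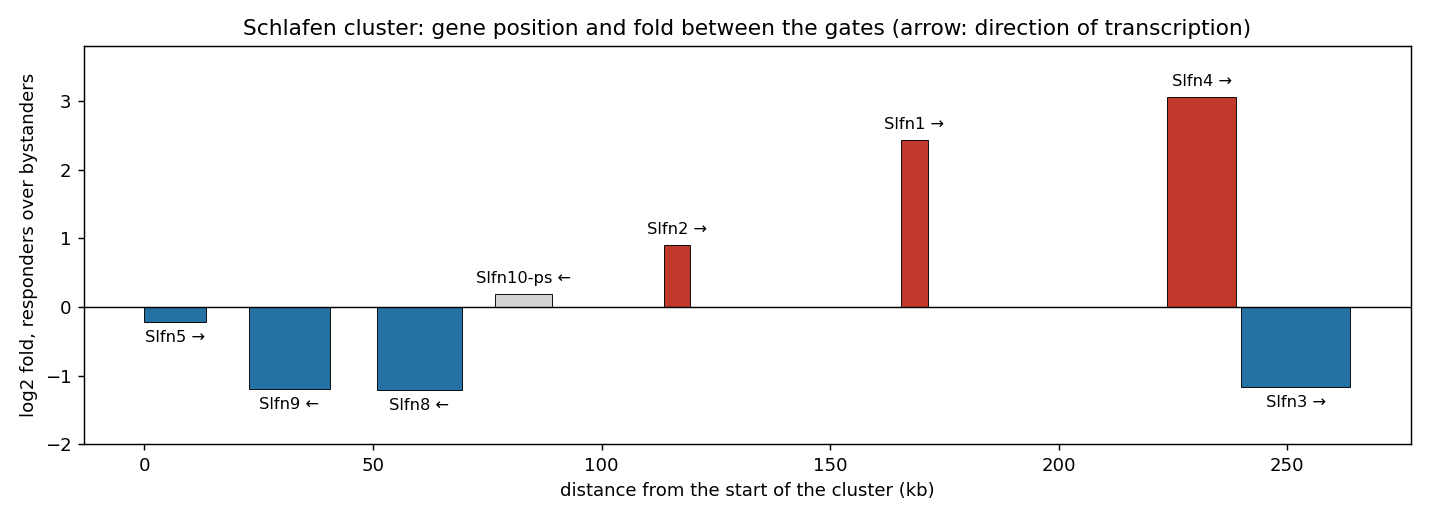
Position of each gene along the Schlafen cluster (horizontal axis, kb from its start; bar width is gene length) and its log2 fold for responders over bystanders (vertical axis), with arrows for the direction of transcription. Slfn4, at 3.05, and Slfn3, at -1.16, are next to each other; Slfn10-ps (grey) is at 0.19.

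Along the chromosome, the 4 members lower in responders were not all adjacent: Slfn5, Slfn9 and Slfn8 lie at the start of the cluster and Slfn3 at its end. Slfn10-ps, a transcribed pseudogene next to Slfn8, had a mean of 54.5 ± 1.51 CPM over responders and 47.7 ± 1.11 CPM over bystanders (SD, n = 4 each). It was 1.14-fold higher with adjusted p = 7.46e-05, a call that was lost with library totals alone (log2 fold 0.00, adjusted p = 0.98). Of its 50-base windows 19.7% occur in other Schlafen transcripts. Slfn14, a family gene beyond Slfn3, had 2 reads in all responder libraries, 4 in bystanders, 5 in the ungated LPS libraries and 4 without LPS, too few to compare. Slfnl1 had 3 reads, all in bystanders, and Slfn5os, antisense to Slfn5, had 1, in the LPS pool. Of the 10 tested genes that flank the cluster, 5 on each side, 4 were higher and 3 lower in responders. These counts are near the shares of all tested genes, 34.7% higher and 35.3% lower. With library totals alone 3 of the 10 were higher and 5 lower, beside 2580 higher and 6695 lower of all 12589 tested genes. Rffl, a flanking gene that encodes a ubiquitin ligase, lies 80.1 kb before the cluster. It had a mean of 42.6 ± 0.40 CPM over responders and 11.7 ± 0.757 CPM over bystanders (SD, n = 4 each). It was 3.65-fold higher by edgeR with adjusted p = 9.89e-38.

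**Figure D3:**
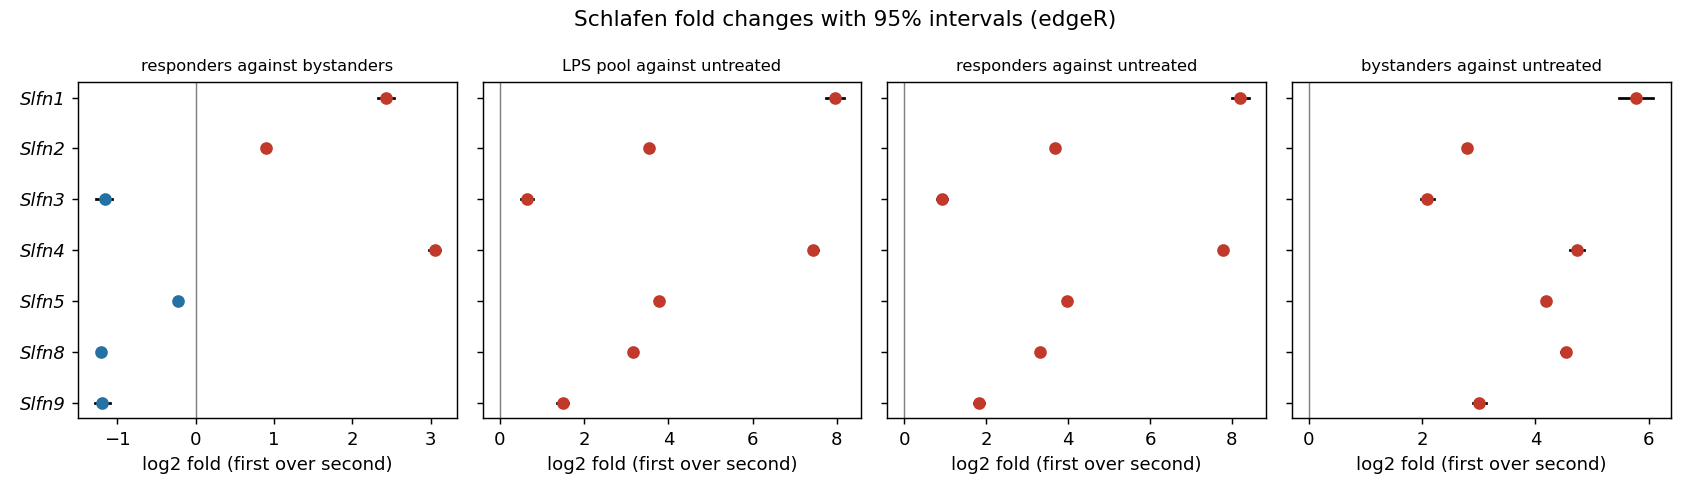
Fitted log2 fold (horizontal axes) of each Schlafen gene in 4 comparisons, with 95% intervals; red points are higher and blue points lower in the group named first. The gates differ in both directions, while every point in the 3 comparisons with untreated cells is above 0.

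All members were higher after LPS in ungated cells. The 7 genes were each higher in the LPS pool than in untreated cells, 6 of them at least 2-fold, in a comparison where 71.9% of tested genes passed (34.1% higher, and 9.72% at least 2-fold higher). The members' median log2 fold was 3.53, beside -0.03 over all genes, and all 7 were also higher with library totals alone, which took the higher share of all calls to 21.6%, against 47.4%. Folds ran from 1.56 for Slfn3 to 247.3 for Slfn1. Slfn1 was nearly absent without LPS, with 7, 8, 8 and 3 reads in the untreated libraries. It was at 77.1, 74.5, 72.3 and 75.7 CPM in the LPS pool, against 0.317, 0.360, 0.411 and 0.125 CPM in untreated cells. Its fold rests on those 26 untreated reads, and the fitted log2 fold was 7.95 ± 0.109 (SE) with adjusted p = 2.52e-54. Slfn4 was at 771.1, 773.5, 769.8 and 776.7 CPM in the LPS pool, against 4.12, 4.95, 3.75 and 4.93 CPM in untreated cells, 172.7-fold higher with adjusted p = 8.72e-38.

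Slfn2 and Slfn5 were the members with the highest level per kb of exon without LPS. Slfn2 averaged 1090 ± 7.39 CPM in the LPS pool and 94.2 ± 2.25 CPM in untreated cells (SD, n = 4 each), an 11.6-fold rise with adjusted p = 2.39e-75. Slfn5 averaged 552.5 ± 7.08 CPM in the LPS pool and 40.2 ± 1.18 CPM in untreated cells, a 13.7-fold rise with adjusted p = 9.49e-74. Slfn8 rose 8.91-fold, with 102.4 ± 3.29 CPM in the LPS pool and 11.5 ± 0.453 CPM in untreated cells (adjusted p = 8.76e-58). Slfn9 rose 2.82-fold, with 55.6 ± 6.16 CPM in the LPS pool and 19.8 ± 0.919 CPM in untreated cells (adjusted p = 1.63e-15). The near copies Slfn8 and Slfn9 thus had different folds: 1.73 to 2.12 Slfn8 reads for each Slfn9 read in the LPS pool, against 0.537 to 0.616 in untreated cells. Slfn3 rose least, at 21.9, 23.9, 24.6 and 19.7 CPM in the LPS pool, against 13.6, 16.2, 15.7 and 12.7 CPM in untreated cells, with adjusted p = 4.13e-12.

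Both sorted groups held more of every Schlafen transcript than untreated cells. In responders all 7 were higher, 6 at least 2-fold, where 75% of tested genes passed, 36.5% higher and 10.8% at least 2-fold higher. In bystanders all 7 were higher by at least 2-fold, where 67.1% passed, 34.1% higher and 7.51% at least 2-fold higher. These comparisons share the untreated libraries, and the members' median log2 folds were 3.69 in responders and 4.19 in bystanders, beside -0.02 and 0.01 over all genes. With library totals alone 21.7% and 27.5% of all calls were higher, against 48.7% and 50.9%, and all 7 members were higher in both. Against untreated cells, Slfn4 was 219.4-fold higher in responders and 26.6-fold in bystanders, Slfn1 294.7-fold and 54.6-fold, and Slfn2 12.9-fold and 6.92-fold. For the other members the bystander fold was the greater: 1.89-fold in responders and 4.24-fold in bystanders for Slfn3, and 15.7-fold and 18.3-fold for Slfn5. Slfn8 was 9.99-fold higher in responders and 23.1-fold in bystanders, and Slfn9 3.53-fold and 8.05-fold. The adjusted p of these 14 values lay between 1.54e-76 and 8.46e-18. The differences between the 2 sorted groups are those tested directly above.

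Il1b, the interleukin-1 beta gene, divided the bystander libraries. It was at 7.79 and 9.03 CPM in bystanders 1 and 2, within its 6.43 to 9.05 CPM in untreated cells, and at 64.1 and 65.1 CPM in bystanders 3 and 4. In bystanders 1 and 2 Slfn1 was at 13.7 and 15.2 CPM and Slfn4 at 109.8 and 113.6 CPM, against at most 0.411 and 4.95 CPM in untreated cells. Both genes were above their untreated range in these libraries, where Il1b was within its own. Il1b was picked after its values were seen, and the cause of these levels was not tested. Bystanders 3 and 4 also hold the neural transcripts. In the 10 libraries without these the responder-to-bystander log2 fold was 2.63 for Slfn1 and 3.15 for Slfn4. It was 2.31 and 2.94 in the 6 with them, which leave a single responder library. This split was chosen after seeing the data.

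The ungated pool did not lie between the gates for every member. All 7 genes were higher in responders than in the LPS pool, where 25.5% of tested genes passed (16% higher and 0.0715% at least 2-fold higher), but none by 2-fold. Log2 folds ran from 0.16 for Slfn2 and Slfn8 to 0.35 for Slfn4. Relative to the same pool, bystanders were higher for Slfn3, Slfn5, Slfn8 and Slfn9 and lower for Slfn1, Slfn2 and Slfn4, where 67% of tested genes passed (34.1% higher and 32.9% lower). The higher share of all calls was 62.7% for responders and 50.9% for bystanders, and 30.6% and 68.4% with library totals alone, with the same directions for all 7 members. For Slfn3 the levels were 27.5 ± 1.33 CPM in responders, 61.7 ± 2.38 in bystanders and 22.5 ± 2.22 in the pool (SD, n = 4 each). For Slfn8 they were 114.9 ± 2.83 CPM in responders, 265.4 ± 4.40 in bystanders and 102.4 ± 3.29 in the pool. Pool levels under both gated groups were seen for Slfn5 and Slfn9 as well. The pool was collected after the gated cells, so gating and collection order cannot be told apart in these comparisons. In the 6 libraries with neural transcripts, which leave a single responder library, the responder-to-pool differences of Slfn2, Slfn3 and Slfn8 did not pass (adjusted p = 0.056, 0.227 and 0.119). Their log2 folds there were 0.12, 0.24 and 0.15, beside 0.16, 0.28 and 0.16 over all libraries.

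The order of the 4 groups therefore took 2 forms. Slfn1, Slfn2 and Slfn4 ran from responders, the highest, through the LPS pool and bystanders to untreated cells. Slfn3, Slfn5, Slfn8 and Slfn9 ran from bystanders through responders and the LPS pool to untreated cells. Each step between neighbouring groups passed edgeR's test for each gene.

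**Figure D4:**
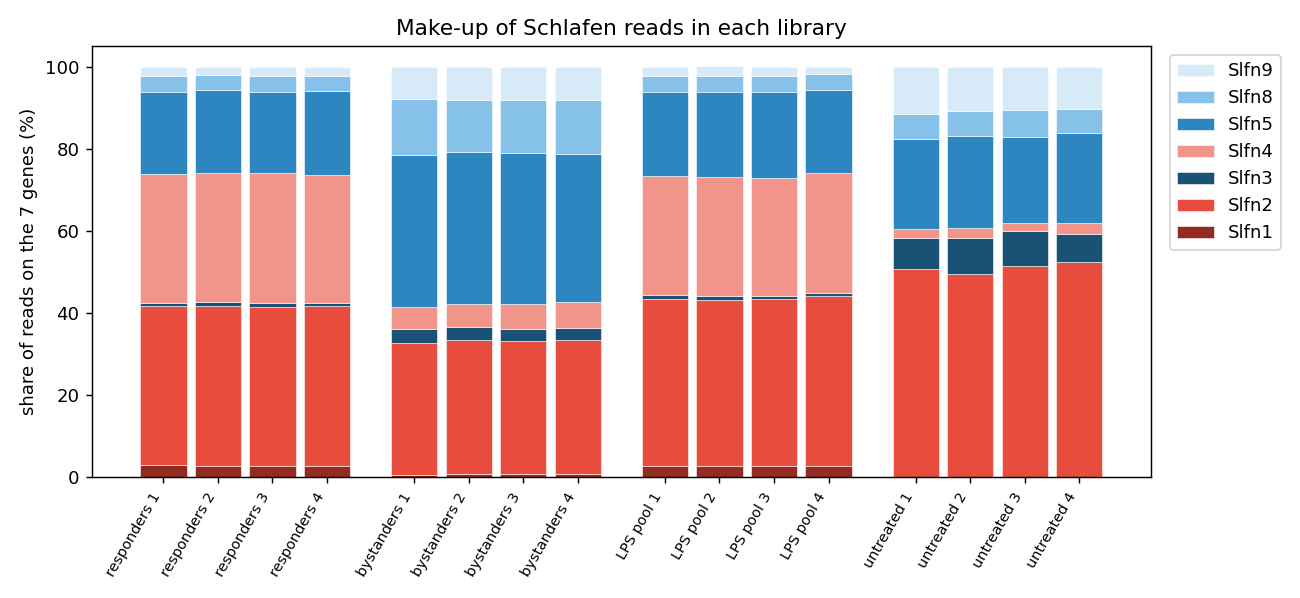
Share of all reads on the 7 Schlafen genes that fell on each gene (vertical axis, percent) in every library; reads are not divided by gene length. Slfn4 takes 31.4% in responders and 5.89% in bystanders, while Slfn5 takes 20.2% and 36.6%.

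The make-up of the family changed with these shifts. The 7 genes together stood at 3128 ± 52.2 CPM in responders, 2008 ± 22.5 CPM in bystanders, 2671 ± 9.67 CPM in the LPS pool and 185.1 ± 1.07 CPM in untreated cells (SD, n = 4 each). Slfn4 made up 31.4 ± 0.195% of these reads in responders, 5.89 ± 0.356% in bystanders, 28.9 ± 0.212% in the pool and 2.40 ± 0.319% in untreated cells. Slfn3 made up 0.879 ± 0.0306% in responders, 3.07 ± 0.147% in bystanders, 0.844 ± 0.0804% in the pool and 7.87 ± 0.863% in untreated cells. Slfn2 had the largest share in responders, the pool and untreated cells, and in bystanders it had 32.5 ± 0.336%, behind Slfn5 with 36.6 ± 0.460%. Per kb of exon, Slfn2 stood first in all groups, at 731.4 ± 12.1 CPM per kb in responders, 392.6 ± 7.44 in bystanders, 656.5 ± 4.45 in the pool and 56.8 ± 1.36 in untreated cells (SD, n = 4 each). Slfn4 followed in responders at 247.9 ± 5.17 CPM per kb, while Slfn5 followed in bystanders at 116.1 ± 1.44. The lowest per kb was Slfn3 in responders, at 8.06 ± 0.390, and Slfn1 in bystanders, at 8.74 ± 1.17.

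Other genes of the interferon route also divided between the gates. Of 15 genes of the type I interferon pathway, all tested, 10 were higher and 5 lower in responders than in bystanders, with a median log2 fold of 0.28 beside -0.01 over all genes, and 8 and 6 with library totals alone. Over all tested genes 34.7% were higher and 35.3% lower, and with library totals alone 2580 and 6695 of 12589. Ifnb1, the gene of interferon beta, was low, with 0.993 ± 0.25 CPM in responder libraries and 0.0734 ± 0.11 CPM in bystander libraries (SD, n = 4 each; adjusted p = 1.75e-08). The lower ones included Stat2 and Irf9, whose products are part of the factor that binds the response element, and Irf1, an interferon-induced activator. Stat2 had 413.4 ± 7.19 CPM in responder libraries and 511.9 ± 2.74 CPM in bystander libraries (SD, n = 4 each; adjusted p = 1.42e-20), and Irf9 had 87.5 ± 1.37 CPM in responders, with 119.6 ± 2.65 CPM in bystanders (adjusted p = 3.31e-21). Irf1 had 156.6 ± 4.62 CPM in responder libraries and 419.6 ± 2.54 CPM in bystander libraries, a log2 fold of -1.42. Socs1, the gene of a feedback inhibitor of cytokine signalling, had the lowest log2 fold of the list, -2.60, with 13.2 ± 0.461 CPM in responders and 80.2 ± 3.45 CPM in bystanders. Tyk2, a receptor-associated kinase gene, was 2.27-fold higher, and Ifnar1, a receptor chain gene, 1.58-fold higher. All 15 were higher in the LPS pool than in untreated cells (14 higher and 1 lower with library totals alone), where 34.1% of all tested genes were higher.

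Interferon-stimulated effector genes also fell on both sides. Of 46 listed, 45 were tested, and 20 were higher and 23 lower in responders than in bystanders, with a median log2 fold of -0.11 (18 and 26, and -0.30, with library totals alone). Over all tested genes 34.7% were higher and 35.3% lower, so both directions were common there too. With library totals alone 2580 of all 12589 tested genes were higher and 6695 lower. All 45 were higher in the LPS pool than in untreated cells, with a median of 3.89, where 34.1% of all tested genes were higher. The highest folds between the gates were those of Ifi205, a DNA-sensor family gene, at 2.24 on the log2 scale, Gbp5, a guanylate-binding protein gene, at 1.68, and Ifi44 at 1.31. The lowest were those of the immunity-related GTPase genes Iigp1, at -2.26, and Irgm2, at -1.72, and of Dtx3l, a ubiquitin ligase gene, at -1.34.

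**Figure D5:**
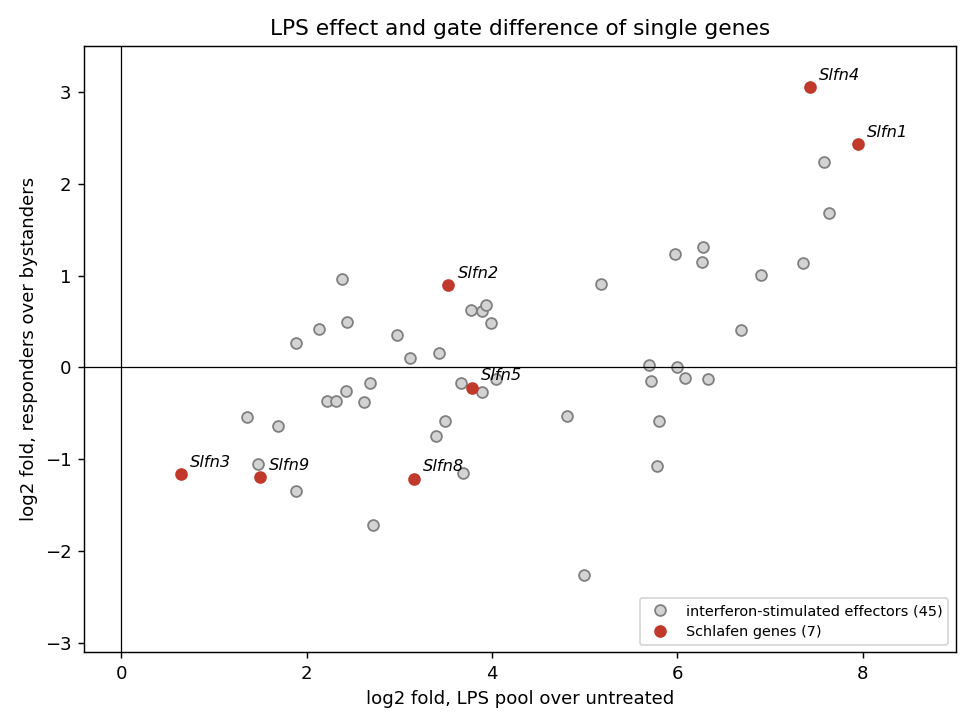
Log2 fold of LPS pool over untreated (horizontal axis) and of responders over bystanders (vertical axis), which share no library, for the 7 Schlafen genes (red) and 45 interferon-stimulated effectors (grey). Slfn4 (7.43 and 3.05) and Slfn1 (7.95 and 2.43) lie at the upper right and Slfn3 (0.64 and -1.16) at the lower left.

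Genes that act on tRNA were looked at because Slfn2 guards tRNAs in mouse T cells. Of 7 such genes, 0 were higher and 3 lower in responders than in bystanders by edgeR, beside 34.7% higher and 35.3% lower among all tested genes; the other 4 had adjusted p of 0.0707 to 0.92. With library totals alone 6 of the 7 were lower, as were 6695 of all 12589 tested genes. Ang, the angiogenin gene, whose product cuts tRNA, had 0.516 ± 0.207 CPM in responder libraries and 1.15 ± 0.123 CPM in bystander libraries (SD, n = 4 each; adjusted p = 0.000947). Rnh1, the gene of its inhibitor, had 304.7 ± 4.94 CPM in responder libraries and 374.8 ± 1.45 CPM in bystander libraries (adjusted p = 7.90e-20).

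Genes of at least 5 CPM whose log2 CPM followed each member most closely over the 16 libraries were listed by Pearson correlation, as a description; the libraries form 4 groups, so the values mostly reflect group means. For Slfn4 they were the antiviral tetherin gene Bst2, the receptor gene Cd300lf and the chemokine gene Ccl2 (r = 0.9995, 0.9995 and 0.9993). For Slfn1 they were Hcar2, Scimp and Slc28a2 (0.9977, 0.9975 and 0.9973), and for Slfn2 Gbp5, Ms4a6d and Sp140 (0.9994, 0.9994 and 0.9992). Slfn5 was closest to the peptide transporter gene Tap1, to Ifit3b and to the RNA sensor gene Ifih1 (0.9996, 0.9994 and 0.9993). Slfn8 was closest to Pml, Tor1aip1 and Daxx (0.9989, 0.9987 and 0.9987), Pml and Daxx being genes of nuclear body proteins. Slfn9 was closest to Xdh, Zcchc2 and Sbno2 (0.9977, 0.9976 and 0.9973), and Slfn3 to the AP-1 gene Jun, Vcpip1 and Itprid2 (0.9928, 0.9908 and 0.9907). Bst2 averaged 949.8 ± 8.72 CPM in responders, 487 ± 14.1 in bystanders, 874.9 ± 15.5 in the pool and 167.9 ± 2.25 in untreated cells, the group order of Slfn4. Daxx averaged 326.9 ± 9.10 CPM in responders, 622.3 ± 8.03 in bystanders, 303.9 ± 14.3 in the pool and 50.8 ± 2.09 in untreated cells, the group order of Slfn8. Among the members, the same correlation was 0.99 between Slfn1 and Slfn4 and 0.97 between Slfn8 and Slfn9, but 0.37 between the neighbours Slfn3 and Slfn4.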

How the data were processed

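RNA sequencing counts of 16 mouse macrophage libraries in 4 groups were analysed. The authors deposited raw read counts per Entrez gene for all libraries in 1 table; the submitters' processing notes name featureCounts 2.1.1, HISAT2 2.2.2, fastp 1.1.0, cutadapt 3.7 and the build GRCm38 (mm10). Not given in the sources used here are strandedness, the gene annotation and how reads that fit several places were handled. RefSeq's GRCm38.p6 annotation gave symbols for 25275 of 27179 identifiers; the other 1904 held 0.399% of counts and stayed in the tests. The table also has 3 empty columns.

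Counts were fitted with edgeR 4.0.16 (R 4.3.3): filterByExpr, TMM scaling and a robust quasi-likelihood model with 1 mean per group over all 16 libraries, which kept 12589 genes. Tests were two-sided with Benjamini-Hochberg adjustment over all of these, and adjusted p under 0.05 was a call. Levels are CPM of the TMM-scaled totals. A standard error is the absolute log2 fold over the square root of F, an approximation, and intervals are at 95%. Each of the 6 pairs of groups was compared. Levels per kb and the 50-base windows use GENCODE M21 exons and transcripts; promoters are RefSeq's (Biopython 1.88 for alignment).

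The members, gene lists and tests were chosen with earlier results of these data known. Named genes were all members, other Slfn loci, the 3 genes most like each member, the 5 tested genes on each side of the cluster, and fixed lists; members of those lists and neighbours named singly, apart from the 3 highest and 3 lowest effectors, and Il1b were picked after their values were seen. The fitting script was tested on simulated data. Some genes of these lists are not reported here. The 24 replicate pairs differed by 1.61 to 3.12 chi-square units per degree of freedom. Each library was counted as its own sample, an assumption these values cannot test, since libraries made from a single culture can differ too. Alternatives were DESeq2 1.42.0, other scalings, no filter, only the groups compared, the replicate number as a block, and left-out libraries.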

Additional observations from a re-analysis of the deposited data

Results flagged for a closer look

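Slfn2 in responder replicate 1, at 1184.3 CPM, lay below the other responder libraries, at 1221.3 to 1229 CPM. In bystander replicate 1 it was at 633.5 CPM, below the other bystander libraries at 655.2 to 659.5 CPM. The gaps to the nearest library were 0.83 and 0.832 of the group's whole range, just past Dixon's critical value for 4 libraries. These 2 are among 28 member-and-group sets examined, and chance flags about 1 in 20. Both gaps are small beside the difference between the gates, and Slfn2 passed edgeR's test without either library.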

How the results depend on the processing

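Every Schlafen call kept its direction in all alternatives run, and all but 3 gene-wise values, given for responders against the LPS pool, kept their side of the threshold. Without any single library of either group the count of members called was 7 to 7 in each of the 6 comparisons. DESeq2, relative log expression factors, no low-count filter and only the groups compared also called 7 in each. Library totals alone moved the median log2 fold of all genes from -0.01 to -0.20 for responders against bystanders, from -0.03 to -0.36 for the LPS pool against untreated, from -0.02 to -0.41 and from 0.01 to -0.18 for responders and bystanders against untreated, and from 0 to 0.14 for bystanders against the pool; the share of calls that were higher fell to 27.8%, against 49.5%, for responders against bystanders. The members' medians moved with it, to -0.41 from -0.22 in that comparison, with 3 higher and 4 lower under both scalings.

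Same-numbered replicates had deviations that correlated above 0.1 in 1 of 24 pairs, bystanders 3 with LPS pool 3 (r = 0.24). Low correlations cannot exclude that same-numbered libraries shared a culture or a sorting run. The fit with the replicate block called 7 members in each comparison. The neural list as first written split untreated from LPS libraries because Mbp is present in all of them (34.2 to 91.9 CPM); in the 12 LPS libraries all 7 members were called in the 3 comparisons among LPS groups, and its other side holds 1 group only and gave no value. A shorter list without Mbp was chosen after seeing the data. In the 6 libraries with neural transcripts, where a lone library is assumed to vary like the others, 4 members were called for responders against the LPS pool, with fewer samples fitted; the log2 folds of Slfn2, Slfn3 and Slfn8, the members not called, were 0.12, 0.24 and 0.15. Untreated Slfn1, at 3 to 8 reads per library, limits the precision of its folds.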
